A study of Homo sapiens with 4 samples.

Results

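The class I antigen presentation pathway was described in NT2 cells through 9 genes, taken as the rows of the count tables whose symbol was HLA-B, HLA-C, HLA-E, B2M, TAP1, TAP2, PSMB8, PSMB9 or NLRC5. Each symbol had 1 row, so the 9 members were found among 62696 genes in all 4 tables. NT2 (NTERA-2) is an established human embryonal carcinoma line, a malignant counterpart of pluripotent cells. RNA-seq of rRNA-depleted total RNA was available for 1 library of cells carrying an empty vector, whose genotype is labelled wild type (the control library), and for 3 libraries labelled HYDIN2 knockdown, numbered 1 to 3. All were grown in the same medium with 10% serum, and no interferon treatment is named in the labels. How the knockdown was made, whether the replicates were separate cultures, and whether any is a clone are not given in the sources used here. The count columns themselves are headed with a LacZ control and with numbered GKAP_KIF27 sets, names that differ from the sample labels.

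Class I molecules show peptides from inside the cell to cytotoxic T cells. The proteasome cuts proteins into peptides, the TAP transporter moves them into the endoplasmic reticulum, and a heavy chain paired with beta-2-microglobulin carries them to the surface. Interferon gamma raises most of these genes through JAK kinases, IRF1 and the transactivator NLRC5, and the pathway is known to be weakly expressed in embryonal carcinoma and pluripotent cells.

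The libraries held from 25181737 to 62904698 counts, and levels are given as CPM, counts per 1000000 of a library total scaled by TMM (trimmed mean of M-values). Between 65.2% and 68% of the nonzero counts were even, as happens where the mates of a read pair are counted separately, so the 95% intervals below were computed on counts divided by 2. Levels carry exact Poisson intervals, and ratios and shares carry exact Clopper-Pearson binomial intervals. They cover counting error only and compare libraries, not conditions. HYDIN2 itself was counted 12 times in the control library and 150, 112 and 11 times in labelled knockdown replicates 1, 2 and 3. Scaled, this was 0.5, 2.41, 1.88 and 0.352 CPM in that order. The targeted gene thus did not check the labels, and every direction below is that of the library as labelled. Of 15880 genes, 0.302% were 2-fold or more apart between replicates 1 and 2, against 21.6% and 22.9% between replicate 3 and each of these. Replicate 3 therefore stood apart, and mean differences are given with and without it where it moved them most. Among markers fixed for the cell type, LIN28A and DPPA4 were at 2840 and 1400 CPM in the control library, as labelled for embryonal carcinoma. Of the leukocyte markers, PTPRC had at most 6 counts in any library, while CD74 reached 151 and ITGAM 95. In bulk RNA, fewer cells with a transcript and less transcript per cell cannot be told apart.

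Promoter sequence is shown for the members with the most counts or the widest differences between libraries, since the elements that respond to interferon and NLRC5 lie close to the start sites. Each window runs from 250 bases before to 50 bases after a RefSeq start site on GRCh38.p14 and is written 5′ to 3′ on the strand of the gene. Capitals mark matches, on either strand, to the core of the interferon-stimulated response element (ISRE; GAAA, any 2 bases and GAAA), TTCNNNGAA (the interferon gamma activated site, GAS), CCAAT (bound by NF-Y), or the NF-kappa-B site of class I enhancer A. The windows are B2M at chr15:44711267-44711566 (plus strand), and HLA-B at chr6:31357130-31357429, HLA-C at chr6:31272043-31272342, TAP1 at chr6:32853655-32853954 and PSMB8 at chr6:32843998-32844297 (all minus strand).
B2M: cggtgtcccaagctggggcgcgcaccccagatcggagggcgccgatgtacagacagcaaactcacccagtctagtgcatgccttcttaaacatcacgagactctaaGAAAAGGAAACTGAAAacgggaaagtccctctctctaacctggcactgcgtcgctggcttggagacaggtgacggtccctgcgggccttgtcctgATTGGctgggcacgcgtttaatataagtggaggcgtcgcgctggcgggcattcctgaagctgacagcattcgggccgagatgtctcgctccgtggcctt
HLA-B: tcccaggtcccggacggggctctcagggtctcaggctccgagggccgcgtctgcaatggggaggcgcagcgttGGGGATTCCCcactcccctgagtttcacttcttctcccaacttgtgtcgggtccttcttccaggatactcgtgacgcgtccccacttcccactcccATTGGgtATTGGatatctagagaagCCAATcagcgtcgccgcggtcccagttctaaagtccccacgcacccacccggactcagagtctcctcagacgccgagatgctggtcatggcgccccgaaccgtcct
HLA-C: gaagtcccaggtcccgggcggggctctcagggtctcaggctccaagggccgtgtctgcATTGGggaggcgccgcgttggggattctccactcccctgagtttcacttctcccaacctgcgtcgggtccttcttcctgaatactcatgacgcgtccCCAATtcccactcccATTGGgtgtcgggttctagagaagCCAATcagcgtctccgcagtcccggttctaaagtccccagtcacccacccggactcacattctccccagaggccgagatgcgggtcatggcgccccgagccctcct
TAP1: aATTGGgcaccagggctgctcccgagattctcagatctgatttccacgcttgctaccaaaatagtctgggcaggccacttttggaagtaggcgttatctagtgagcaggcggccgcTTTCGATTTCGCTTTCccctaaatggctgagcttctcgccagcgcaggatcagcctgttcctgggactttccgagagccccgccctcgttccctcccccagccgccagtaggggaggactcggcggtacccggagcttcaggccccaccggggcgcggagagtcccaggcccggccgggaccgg
PSMB8: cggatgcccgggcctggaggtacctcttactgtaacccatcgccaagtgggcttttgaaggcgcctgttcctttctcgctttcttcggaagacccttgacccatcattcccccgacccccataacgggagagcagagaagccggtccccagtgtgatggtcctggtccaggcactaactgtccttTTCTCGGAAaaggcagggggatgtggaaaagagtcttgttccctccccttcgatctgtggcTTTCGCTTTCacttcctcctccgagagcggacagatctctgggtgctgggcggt

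Windows were found for 7 of the 9 members. HLA-E and NLRC5 had no entry in the table of promoters, and TAP1 and PSMB8 had 2 windows each, which made 9 windows. The PSMB8 window shown is the one with matches, and the other PSMB8 window held none of the elements searched. The ISRE core was present in 4 of the 9 windows, 1 each of B2M, TAP1, TAP2 and PSMB8, and in 3.57% of 35116 promoter windows of the same length. Only exact matches were searched, so a variant element in the HLA-B or HLA-C window would not be marked. In B2M and in TAP1 2 such matches overlapped, giving the longer capital runs printed above. CCAAT was present in 5 of the 9 (1 each of HLA-B, HLA-C, B2M, TAP1 and PSMB9) against 34.6% of all windows, and TTCNNNGAA in 2 of the 9, in a second TAP1 window and in the PSMB8 window shown, against 7.66%. The enhancer A site was found in the HLA-B window, as its run of 10 capitals starting at position -177, and in 0.0769% of all windows, and the HLA-C window held no exact match. Neither TGACGTCA (the cyclic AMP response element) nor TGACGCA, 2 forms of the X2 box, matched any member window, against 1.85% and 2.47% of windows. Other forms were not searched, and the HLA-B and HLA-C windows hold tgacgcg, which differs from TGACGCA in its last base. TAP1 and PSMB9 are transcribed away from each other, with RefSeq start sites 488 bases apart, and their windows overlap by 13 bases. The CCAAT matches of these windows lie in the overlap and are the same genomic site read on opposite strands. That site was thus counted for both genes. A match describes letters only, and binding was not measured.

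The heavy chains and their light chain made up nearly all of the members' counts. B2M (ENSG00000166710.23; chromosome 15, 44711487 to 44718877, plus strand of GRCh38) encodes beta-2-microglobulin, the invariant chain of class I molecules. It was counted 2734 times in the control library, at 114 CPM (108 to 120). Its levels in labelled knockdown replicates 1, 2 and 3 were 98.8, 115 and 62.5 CPM. Replicates 1 and 2 thus lay near the control library, at ratios of 0.868 (0.814 to 0.925) and 1.01 (0.946 to 1.07), while replicate 3 was lower, at 0.549 (0.505 to 0.596). The mean log2 difference of B2M was -0.35 ± 0.46 (SD, n = 3), smaller than its spread, and -0.10 without replicate 3.

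HLA-C was the member with the largest difference shared in sign by all labelled knockdown libraries. It encodes a classical heavy chain that is also a ligand of inhibitory receptors on natural killer cells (ENSG00000204525.18; chromosome 6, 31268749 to 31272130, minus strand). Its levels were 22.1 CPM (19.5 to 24.9) in the control library and 13.3, 9.05 and 5.28 CPM in replicates 1, 2 and 3. Every labelled knockdown library lay below the control library with no overlap of the counting intervals, at ratios of 0.602 (0.515 to 0.705), 0.41 (0.345 to 0.487) and 0.239 (0.185 to 0.307). HLA-C had a mean log2 difference of -1.36 ± 0.67 (SD, n = 3), or -1.01 without replicate 3. These 3 libraries also differed among themselves: replicate 2 was at 0.68 times replicate 1 (0.581 to 0.795), although those libraries were otherwise nearly alike.

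HLA-B, the neighbouring classical heavy chain (ENSG00000234745.14; chromosome 6, 31269491 to 31357188, minus strand, a span that includes a transcript reaching into HLA-C), did not follow HLA-C in replicates 1 and 2. The control library was at 8.83 CPM, and replicates 1, 2 and 3 were at 7.55, 8.44 and 3.71 CPM. The ratio intervals of replicates 1 and 2 included 1, and that of replicate 3, 0.42 (0.3 to 0.584), did not. HLA-C accordingly took a smaller share of the counts of both genes in each labelled knockdown library, 63.8%, 51.7% and 58.7% in replicates 1, 2 and 3, against 71.4% (66.5% to 76%) in the control library. The interval of replicate 3 (50.1% to 67%) just overlapped that of the control library, and those of replicates 1 (60% to 67.5%) and 2 (47.3% to 56.1%) overlapped it slightly and not at all. HLA-B and HLA-C are highly polymorphic and alike in sequence, so reads can be lost or exchanged between them, and both levels are uncertain.

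HLA-E, a non-classical heavy chain that binds leader peptides of other class I chains and is read by the CD94/NKG2 receptors (ENSG00000204592.9; chromosome 6, 30489467 to 30494205, plus strand), had the smallest SD of the log2 differences among the 6 tested members. Its levels were 4.25 CPM in the control library and 4.95, 4.72 and 3.2 CPM in replicates 1, 2 and 3. All 3 ratio intervals included 1, and the mean log2 difference was -0.01 ± 0.34 (SD, n = 3), or 0.18 without replicate 3.

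**Figure D1:**
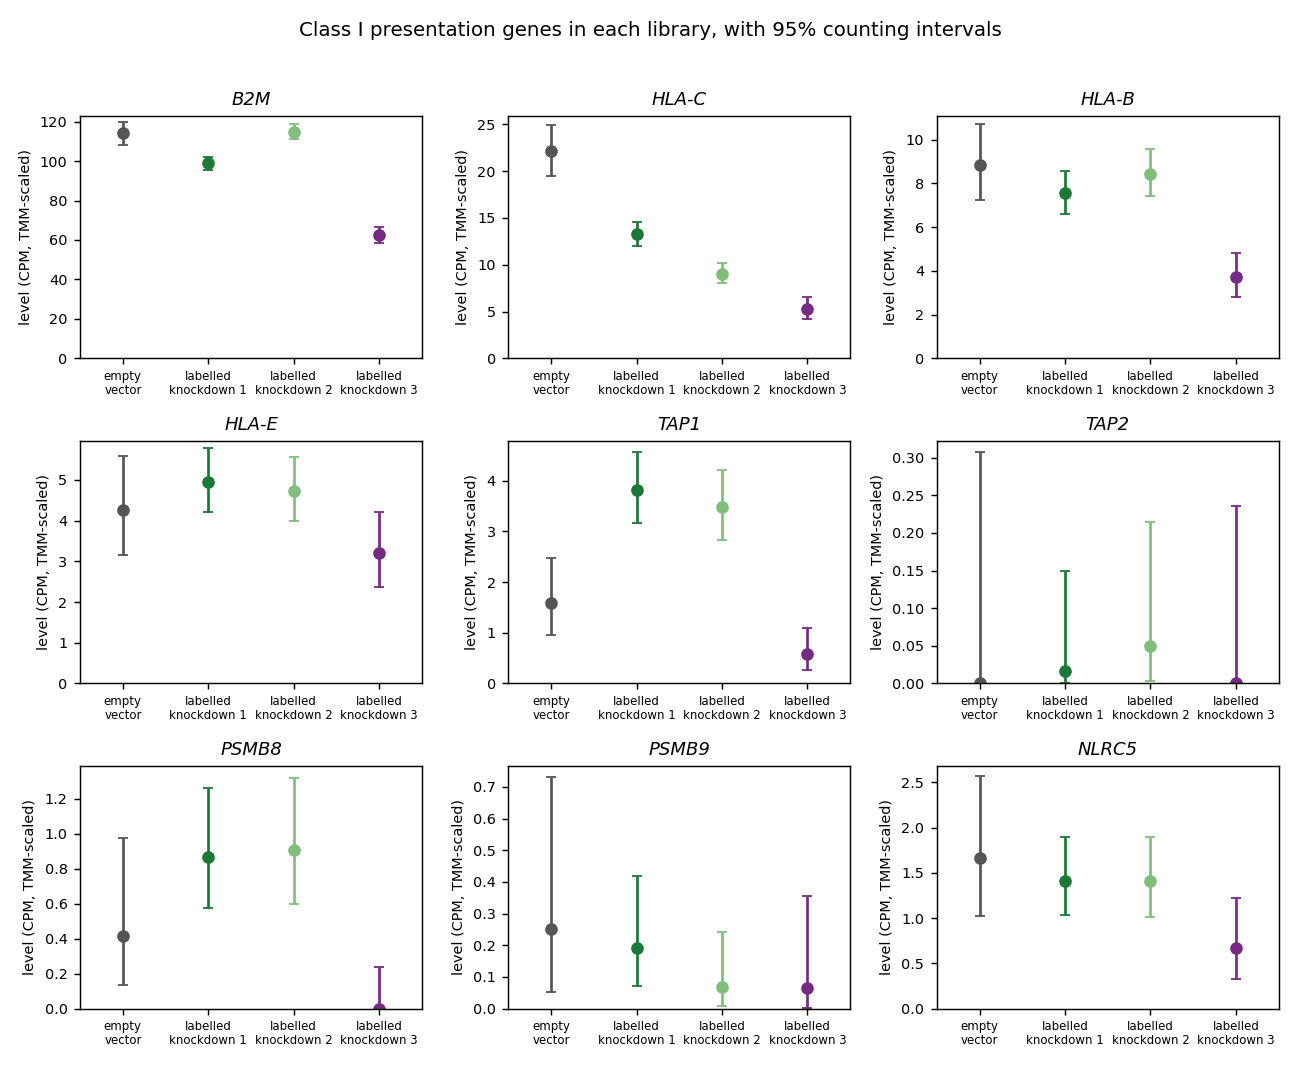
Level of each of the 9 members in CPM (vertical axes, from 0, with a different range in each panel) in the control library (empty vector) and in labelled knockdown libraries 1 to 3. Points are single libraries and bars are 95% counting intervals; HLA-C descends from 22.1 to 5.28 CPM, TAP1 is above the control library in replicates 1 and 2 and below it in replicate 3, and TAP2 is near 0 in all 4.

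The transporter and the immunoproteasome genes had few counts. TAP1 was the one of them whose ratio interval excluded 1 in each labelled knockdown library, though replicate 3 had only 18 counts. TAP1, which encodes one chain of the peptide transporter (ENSG00000168394.13; chromosome 6, 32845209 to 32853978, minus strand), had 38 counts in the control and 238, 207 and 18 counts in the replicates. This gave 1.58, 3.82, 3.47 and 0.576 CPM in that order. Replicates 1 and 2 were above the control library at ratios of 2.41 (1.48 to 4.15) and 2.19 (1.33 to 3.78), and replicate 3 was below it at 0.364 (0.145 to 0.844). Because the replicates lay on opposite sides, the mean log2 difference of 0.32 ± 1.48 (SD, n = 3) describes none of them; without replicate 3 it was 1.18.

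PSMB8, an interferon-inducible catalytic subunit of the immunoproteasome (ENSG00000204264.12; chromosome 6, 32840717 to 32844703, minus strand), had fewer counts, 10 in the control and 54, 54 and 0 in the replicates. Its ratios of 2.08 (0.79 to 6.92) and 2.17 (0.824 to 7.22) in replicates 1 and 2 had intervals that included 1. Replicate 3, with 0 counts, was below every other library: its counting interval reached up to 0.839 of the control library, 0.292 of replicate 1 and 0.28 of replicate 2. PSMB9, the other immunoproteasome subunit of the region (ENSG00000240065.8; chromosome 6, 32844136 to 32859585, plus strand), had 6, 12, 4 and 2 counts. With every ratio interval spanning 1, no difference could be detected from so few reads. In the annotation 20.6% of PSMB8 exon bases lie opposite exons of PSMB8-AS1, which had 0 counts in all 4 libraries.

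TAP2, the partner chain without which the transporter is not formed (ENSG00000204267.19; chromosome 6, 32821833 to 32838780, minus strand), was nearly uncounted. The control had 0 counts and the replicates 1, 3 and 0, so no fold change is read from them. In GENCODE 29, 32.3% of its exon bases are shared with a same-strand gene, the readthrough ENSG00000250264, which had 0 counts in all 4 libraries. Among protein-coding genes with over 20% and up to 50% of exon bases shared in this way, 14.8% of 561 had at most 3 counts in every library. That share was 11.7% of 16483 genes with no shared base and 88.7% of 443 genes with over 90% shared. How reads in shared exons were counted is not given in the sources used here, and their part in the TAP2 counts was not tested.

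NLRC5, the transactivator of class I promoters (ENSG00000140853.17; chromosome 16, 56989485 to 57083531, plus strand), was the one regulator among the members. It had 40, 88, 84 and 21 counts, or 1.67, 1.41, 1.41 and 0.672 CPM. Replicates 1 and 2 lay at 0.848 (0.49 to 1.52) and 0.844 (0.485 to 1.52) of the control library, intervals that included 1. Replicate 3 was lower, at 0.403 (0.172 to 0.893). Its levels in replicates 1 and 2 were equal, and replicate 3 was again the lowest library. The mean log2 difference was -0.57 ± 0.59 (SD, n = 3). It was -0.23 without replicate 3 and -1.02 after removal of trends on exon length and GC content.

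Levels of different genes were compared per length, as CPM per kilobase of annotated exon. B2M was highest, from 10.3 to 18.9 over the 4 libraries, with no overlap with the next gene, HLA-C, from 2.11 to 8.81. HLA-B followed, from 1.22 to 2.89, and HLA-E, from 1.08 to 1.66; the ranges of HLA-C and HLA-B overlapped, as did those of HLA-B and HLA-E. TAP1 came below HLA-E without overlap at this length, from 0.12 to 0.796. PSMB8, from 0 to 0.302, NLRC5, from 0.0543 to 0.135, and PSMB9, from 0.0208 to 0.0814, overlapped each other in turn. The ranges of PSMB8 and NLRC5 also overlapped that of TAP1. TAP2 was lowest at 0 to 0.00786, though in replicate 3 PSMB8 was at 0 as well. With the longest transcript as the length, the mean level over the 4 libraries moved from 16 to 40.6 for B2M, from 2.34 to 4.61 for HLA-B and from 0.104 to 0.189 for NLRC5. HLA-C in replicate 2 then came just below HLA-B, at 4.81 against 5.46, and the ranges of HLA-E, down to 1.23, and TAP1, up to 1.29, overlapped. Among 19849 protein-coding genes, B2M per length was above 80.5% to 87.9% of genes and NLRC5 above 23.1% to 28.7%.

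**Figure D2:**
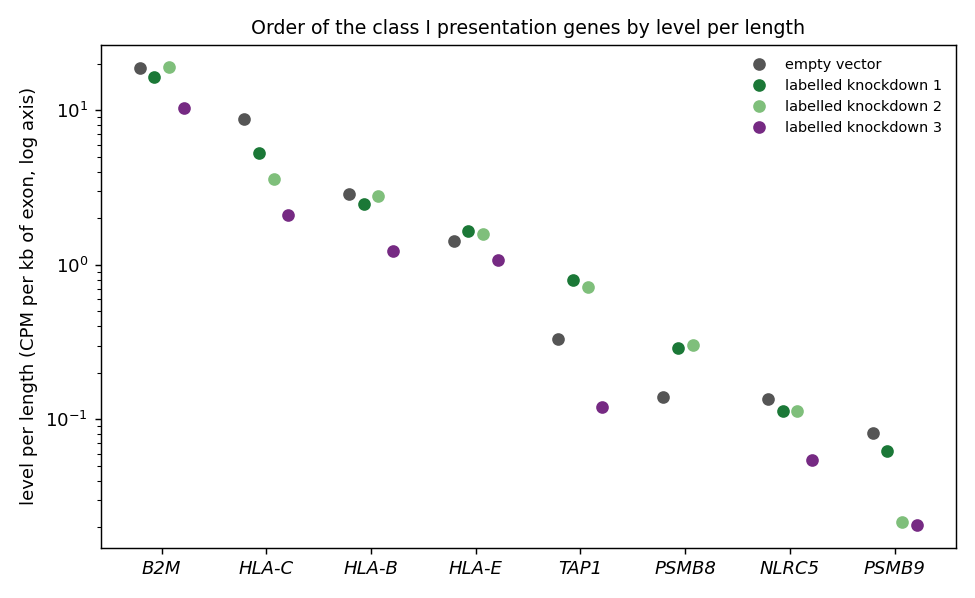
Level per length of 8 members (CPM per kilobase of exon, log axis), 1 point per library; the value of 0 for PSMB8 in replicate 3 cannot be drawn, and TAP2 is left out for its 0 values. B2M stands above all others and HLA-E above TAP1 in each library.

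The comparison with the control library asked which members changed with the label. With 1 empty vector library there is no replicate check on that side, so a gene was counted as called when all 3 labelled knockdown libraries lay 2-fold or more to the same side of it (a log2 CPM difference of at least 1). Of the 9 members, 6 reached a mean CPM of 1 and were tested; TAP2, PSMB8 and PSMB9 did not. None of the 6 was called higher and none lower, against 3.65% and 2.72% of 15880 genes. At 1.5-fold in each library HLA-C alone was lower, against 9.61% of all genes, and no member was higher, against 10%. By sign alone, HLA-B, HLA-C and NLRC5 were lower in all 3 libraries, as were 34.2% of all genes, and no member was higher in all 3, as 30.1% were. B2M, near 0 in replicate 2, joined them with RLE or upper quartile scaling, and took the place of HLA-B after removal of length and GC trends. Without replicate 3, TAP1 was at least 2-fold higher in both remaining libraries, as were 9.79% of 15797 genes, and no member was 2-fold lower in both, as 5.37% were. The median over the 6 members of the mean log2 difference was -0.43, against -0.02 over all genes tested, and -0.12 without replicate 3.

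edgeR's quasi-likelihood test, whose spread comes from the labelled knockdown libraries alone, called 0 of 26029 genes after Benjamini-Hochberg adjustment (0%), and so 0 of the 8 members it kept. At an unadjusted p under 0.05 it had 3023 genes (11.6%) and 0 of the 8. The Wald test of DESeq2 called 253 of 16512 genes (1.53%) and 0 of 6 members. Without replicate 3, edgeR's test called 11177 of 25016 genes (44.7%) and 2 of 8 members, HLA-C and TAP1, on a spread taken from the 2 nearly identical libraries.

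**Figure D3:**
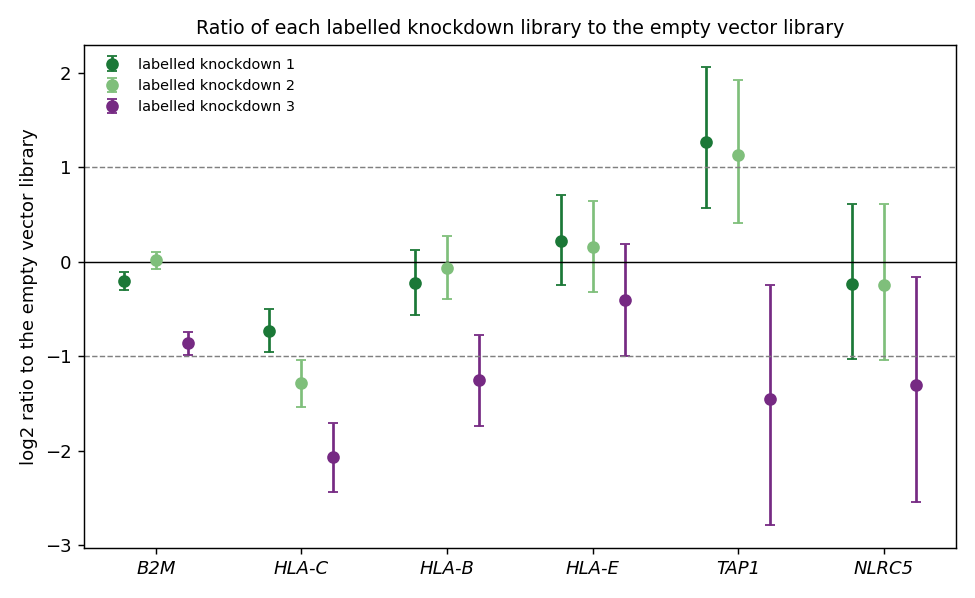
Log2 ratio, without a prior count, of each labelled knockdown library to the control library for the 6 members with a mean CPM of at least 1, with 95% binomial counting intervals; dashed lines mark 2-fold. HLA-C is below 0 in all 3 libraries, and TAP1 is above 0 in replicates 1 and 2 and below it in replicate 3.

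The largest shift of the members was in replicate 3. In all 6 tested members replicate 3 was the lowest of the 4 libraries, which held for 42.7% of all genes tested; 56.3% of genes were lower in replicate 3 than in both of the other labelled knockdown libraries, and 6 of 6 members were. The median log2 difference of the 6 from the control library was -0.22, -0.03 and -1.25 in replicates 1, 2 and 3, against 0.03, 0.05 and -0.15 for all genes. Against the other labelled knockdown libraries, replicate 3 was at least 2-fold lower than both for HLA-B, TAP1 and NLRC5, as for 13.1% of all genes; with RLE, total-count or upper quartile scaling TAP1 alone passed, since HLA-B and NLRC5 lay near the threshold. No member was 2-fold higher in replicate 3 than in both, as 6.2% of genes were. TAP1 in replicate 3 was at 0.151 times replicate 1 (0.0673 to 0.296) and 0.166 times replicate 2 (0.0739 to 0.328). B2M was at 0.632 (0.588 to 0.68) and 0.544 (0.507 to 0.585) times these libraries, and HLA-E at 0.647 (0.461 to 0.896) and 0.678 (0.481 to 0.942).

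Most embryonal carcinoma markers were also lowest in replicate 3, 7 of 9, as were 42.7% of all genes tested. Their median log2 difference from the control library was -0.26, -0.15 and -1.06 in replicates 1, 2 and 3. Their summed level in replicate 3 was 4140 CPM, of which LIN28A gave 1910, against 6980 to 7220 CPM in the other 3 libraries. They did not move alike: DNMT3B (-1.23, -1.18 and -1.19) and L1TD1 (-0.97, -0.98 and -1.06) were lower by similar amounts in replicates 1, 2 and 3. SALL4 was higher in each (0.35, 0.27 and 0.37). Of 9 leukocyte markers 2 reached a mean CPM of 1, and the list summed to 3.83, 5.28, 4.61 and 1.38 CPM in the control and the replicates in order. Stromal markers summed to 504, 645, 634 and 421 CPM, endothelial markers to 80.4, 185, 182 and 136 CPM, and neural markers to 190, 363, 341 and 321 CPM. In the control library THY1 gave 362 CPM of the stromal sum, TEK 62.1 of the endothelial and NES 167 of the neural. THY1 was at 210 CPM in replicate 3, while the median log2 difference of the tested stromal markers there was 0.28. For the endothelial and neural markers this median was 0.40 and 0.75. The part of these shifts in the levels of the class I genes was not tested.

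The other genes of the pathway were read from lists grouped by role. No list gene was called higher or lower in all 3 labelled knockdown libraries, among 5 of 8 other class I heavy chains, 6 of 7 peptide loading genes, 7 of 8 proteasome genes, 15 of 16 regulators, 6 of 6 interferon gamma receptor, kinase and feedback genes and 3 of 11 class II genes that were tested.

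In peptide loading the median log2 difference was 0.44, and 0.45 without replicate 3. Of the 6 tested genes 4 were above the control library in sign in all 3 labelled knockdown libraries, as 30.1% of all genes were. TAPBP, which encodes tapasin, the chaperone that bridges TAP and the heavy chain, was at 2.92 CPM in the control and at 7.1, 9.75 and 3.27 CPM in the replicates. Replicates 1 and 2 lay above the control library, and replicate 3, with a log2 difference of 0.16, lay near it. The abundant chaperones calreticulin (CALR) and calnexin (CANX) had mean log2 differences of -0.39 ± 0.40 and 0.23 ± 0.36 (SD, n = 3), or -0.63 and 0.02 without replicate 3. The trimming peptidase ERAP1, 1 of those 4, was at 0.85 ± 0.09 (SD, n = 3).

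All 7 tested proteasome genes were below the control library in sign in all 3 labelled knockdown libraries, where 34.2% of all genes were, and their median log2 difference was -0.77, or -0.39 without replicate 3. With total-count scaling 6 of the 7 were below it, all but PSME3, and 5 after removal of length and GC trends. PSMB7, a constitutive catalytic subunit, had a mean log2 difference of -0.44 ± 0.34, and PSME3, a proteasome activator, of -0.14 ± 0.16 (SD, n = 3), or -0.26 and -0.05 without replicate 3. The constitutive subunits PSMB5 and PSMB6, which PSMB8 and PSMB9 replace in the immunoproteasome, were at 168 and 147 CPM in the control library, and PSMB5 was at 95.9, 110 and 81.5 CPM in the replicates. PSMB8 took 0.247% of the counts of PSMB8 and PSMB5 together in that library (0.0804% to 0.576%), and 0.896% (0.591% to 1.3%), 0.814% (0.537% to 1.18%) and 0% (up to 0.289%) in replicates 1, 2 and 3. The interval of replicate 1 lay above those of the control library and replicate 3, and that of replicate 2 overlapped the control and lay above replicate 3. These shares move with both genes, and PSMB5 in replicate 1 was at 0.571 of the control (0.54 to 0.605). PSMB9 took from 0.0594% to 0.199% of the counts of PSMB9 and PSMB6, with overlapping intervals. PSMB10, the third inducible subunit, took from 0.434% to 0.769% of the counts of PSMB10 and PSMB7, also with overlapping intervals. These subunit pairs were chosen after their values had been seen.

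Regulators had a median log2 difference of 0.09, or 0.26 without replicate 3. The gene with the highest CPM, NFYC, a subunit of the CCAAT-binding factor NF-Y, was at 0.41 ± 0.64, and CREB1, a factor of the X2 box, at 0.33 ± 0.13 (SD, n = 3); without replicate 3 these were 0.78 and 0.26. IRF1, which carries the interferon gamma signal to class I promoters, was picked here after its values had been seen. It was at 3.96 CPM in the control and at 8.09, 5.93 and 2.98 CPM in the replicates. Replicates 1 and 2 lay above the control library, at ratios of 2.05 (1.5 to 2.85) and 1.5 (1.08 to 2.11). The ratio of replicate 3 to the control, 0.752 (0.491 to 1.15), had an interval that included 1.

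Among the other heavy chains, with a median of -0.80 (-0.26 without replicate 3), CD1D, which presents lipids, was at 2.46 CPM in the control and at 0.482, 0.737 and 2.88 CPM in the replicates, so that replicate 3 did not share the lower level of replicates 1 and 2. MICA, a stress ligand of the NKG2D receptor, was at 5 CPM and at 2.25, 3.37 and 2.5 CPM. HLA-G had 0 counts in all 4 libraries. In the receptor and kinase list, with a median of 0.22 (0.42 without replicate 3), JAK1 was at 0.25 ± 0.20 and IFNGR1 at 0.18 ± 0.52 (SD, n = 3), or 0.37 and 0.48 without replicate 3. Class II genes were sparse, with 5 of 11 at no more than 3 counts in every library; those with the highest CPM were HLA-DPB1, at 11.2 CPM in the control library and 6.86, 7.5 and 5.12 CPM in the replicates, and HLA-DMA, at 5.17 CPM and 9.51, 9.01 and 2.24 CPM.

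**Figure D4:**
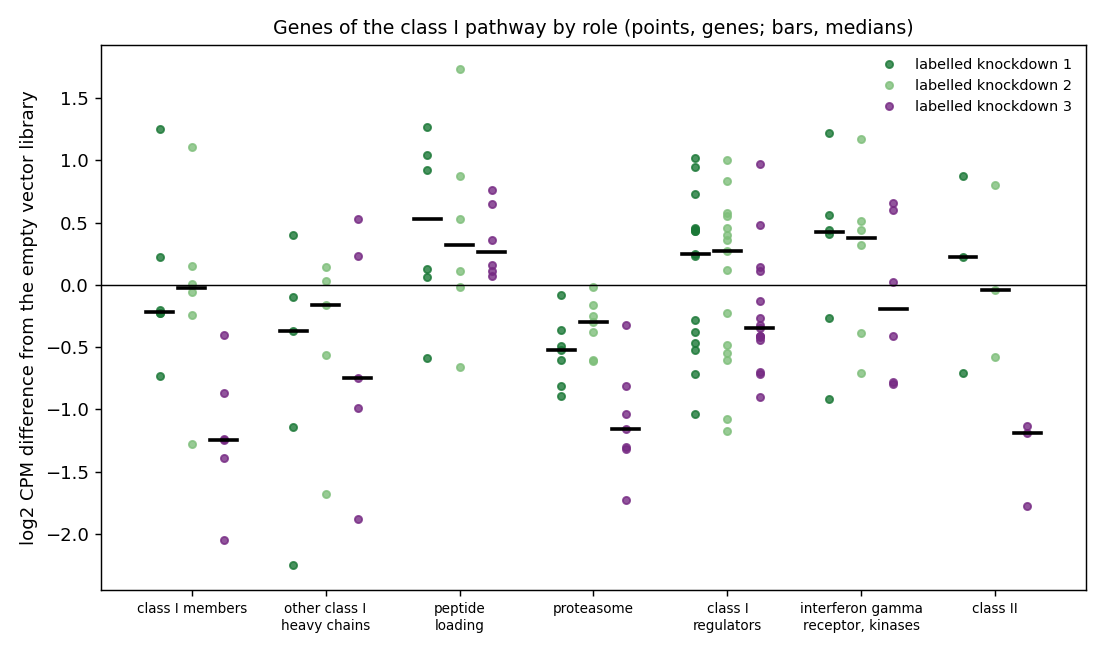
Log2 CPM difference of each labelled knockdown library from the control library for genes with a mean CPM of at least 1, grouped by role; points are genes and black bars are medians. The 7 proteasome genes lie below 0 in all 3 libraries (6 with total-count scaling, 5 after removal of trends), and the class I members have medians of -0.22, -0.03 and -1.25.

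Among 13288 protein-coding genes outside these lists, DDX50 and SCAMP5 were among those whose profile over the 4 libraries was nearest to the median profile of the 6 tested members. Their Euclidean distances in centred log2 CPM were 0.0439 and 0.0466. DDX50 was at 87.5 CPM in the control and at 81.8, 84.3 and 39.1 CPM in the replicates. SCAMP5 was at 41.5 CPM and at 37.5, 38.4 and 18.5 CPM. Both had nearly equal levels in the first 3 libraries and their lowest in replicate 3. With 4 libraries such a likeness is a description only.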

How the data were processed

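Each library came with its own file, in which the authors deposited unnormalized counts beside versioned Ensembl identifiers and symbols. The submitters' processing notes name STAR 2.7.11b, featureCounts 2.0.6, DESeq2 and the build GRCh38 (hg38), without settings; the annotation release, strand setting and handling of shared exons are not given in the sources used here. Per the labels' protocols the libraries were strand-specific. Groups came from the sample titles.

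Counts were scaled in R 4.3.3 by the TMM method of edgeR 4.0.16, run on genes kept by filterByExpr, and log2 CPM used a prior count of 2. Genes with a mean of the group mean CPMs of at least 1 were tested. Differences are means of 3 log2 differences from the single empty vector library, with the SD over the labelled knockdown libraries. If these are not separate cultures, the spread may be technical. edgeR's quasi-likelihood test and the Wald test of DESeq2 1.42.0 gave numbers of calls only. Coordinates and exon lengths came from GENCODE 29 on GRCh38, in which 58269 of 62696 identifiers matched, and promoters from RefSeq. Simulated data were used to check the trend removal, the 2-fold rule and the quasi-likelihood test.

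The members and lists were chosen with earlier results of these data known. The genes named are the members, HYDIN2, list genes past 2-fold in the mean, the 2 most abundant of each list, and the 3 nearest profiles; others, such as ERAP1, HLA-G and those marked, were named after their values were seen. Some genes that the rule or the lists hold are not reported here. The alternatives were other scalings, filters, prior counts, fold rules, lengths, trend removal and omitted libraries.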

Additional observations from a re-analysis of the deposited data

How the results depend on the processing

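No paired analysis was possible because 1 of the groups compared is a single, unnumbered library. The median log2 difference over the members kept its sign under every alternative run, from -0.12 to -0.63, and ran over the same range when each labelled knockdown library was left out. HLA-C stayed negative throughout, and was -1.67 without replicate 1 and -1.01 without replicate 3. TAP1 changed sign, to -0.14 without replicate 1 and -0.07 without replicate 2, and was 1.18 without replicate 3. PSMB8, at -0.44 ± 2.52 (SD, n = 3) with 0 counts in replicate 3, was 1.02 without that library. Its mean also depended on the prior count, at -1.04 with 0.5 and -0.13 with 5. B2M, at -0.35, was -0.10 without replicate 3. NLRC5, at -0.57, was -0.23 without replicate 3 and -1.02 after removal of trends on exon length and GC content. TAP2, with at most 3 counts, moved from 0.51 to 1.24 with a prior count of 0.5 and to 0.24 with 5. These TAP2 values depend on the prior count and are not read as a fold change.

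Members at least 2-fold higher numbered 0, and 0 to 1 when a library was left out (1, TAP1, without replicate 3). Members at least 2-fold lower numbered 0, and 1, HLA-C, with a 1.5-fold rule, with 2-fold in the mean or without replicate 1 (range 0 to 1 over omitted libraries). Members at least 2-fold lower in replicate 3 than in replicates 1 and 2 numbered 3. The number was 1, TAP1, with RLE, total-count or upper quartile scaling. With a mean CPM of 5 it was also 1, but HLA-B, of 3 members tested. It was 2 with a prior count of 5 or after removal of trends, and 4 with a mean CPM of 0.1 or no filter. Total-count scaling moved the median of all genes in replicate 3 from -0.15 to 0.05.

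Other pathway genes numbered 0 higher and 0 lower. They were 2 higher and 4 lower with a 1.5-fold rule and 1 and 1 with 2-fold in the mean. Without replicate 3 they were 2 and 2, against 0 when another library was omitted. All genes called higher and lower numbered 580 and 432. They were 1605 and 1035 with a mean CPM of 0.1, 2526 and 1810 with no filter, 377 and 254 with a mean CPM of 5, 1590 and 1526 with a 1.5-fold rule and 1356 and 1074 with 2-fold in the mean. With a library left out they ranged from 612 to 1547 (without replicate 3) and from 482 to 848. edgeR's test called 0 genes, and from 17 to 11177 with a library left out, where its spread came from 2 libraries; members called were 0 to 2. DESeq2's Wald test called 253. The cause of these changes was not tested. Counts under about 20, as for PSMB9, TAP2, the control and replicate 3 of PSMB8, and replicate 3 of TAP1, limit any statement on these genes.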
